A study of Mus musculus with 6 samples.

Results

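Regulators of G protein signalling (RGS proteins) were followed in the mouse ductus arteriosus (DA) through 10 genes taken by symbol from a table of 23997 genes: *Rgs2*, *Rgs3*, *Rgs4*, *Rgs5*, *Rgs7*, *Rgs10*, *Rgs12*, *Rgs14*, *Rgs16*, and *Rgs19*. The DA is the fetal vessel that joins the pulmonary artery to the aorta and is closed by its smooth muscle after birth. RNA-Seq was carried out on whole DA of C57BL/6 embryos at E17.5, without treatment, in 2 groups of 3 libraries. The first group was wild type (WT), and the second carried the genotype Prdm6f/f; SM22-Cre (KO), in which the SM22 (*Tagln*) promoter drives Cre-recombinase in smooth muscle, so the deletion is not directed at other cells of the vessel such as endothelium. Libraries are called WT0, WT1, and WT2 and KO0, KO1, and KO2 after their titles. The study's text calls the controls littermates, and a legend that covers these and other assays gives more samples a group than the 3 libraries analysed here. The sources used here do not say whether a library came from 1 embryo or from several, so p-values measure the spread between these libraries, which may be technical. Levels are given as FPKM, fragments per kilobase of transcript scaled for library size, which can be compared between genes of different length. How the libraries were scaled is not stated in the sources used here.

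A vessel sets its tone largely through receptors coupled to heterotrimeric G proteins, whose alpha subunits signal while bound to GTP. RGS proteins bind active alpha subunits and speed up their GTP hydrolysis, which ends the signal. The members belong to 4 subfamilies: the small R4 proteins (*Rgs2*, *Rgs3*, *Rgs4*, *Rgs5*, *Rgs16*), the R12 proteins (*Rgs10*, *Rgs12*, *Rgs14*), the RZ protein *Rgs19*, also known as GAIP, and the R7 protein *Rgs7*, which is stable only in complex with the G protein beta subunit Gβ5. *Rgs5* is widely used as a marker of pericytes and other mural cells, RGS2 acts mainly on Gq, and RGS4, RGS5, and RGS16 are degraded through an N-terminal cysteine in an oxygen-dependent way.

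On chromosome 1 lay 5 of the 10 members. *Rgs5* (plus strand, chr1:169655501-169695813 on GRCm38) and *Rgs4* (minus strand, chr1:169741477-169747642) were neighbours that pointed toward each other with 45663 bases between them. *Rgs7* (minus strand, chr1:175059076-175492862) spanned 433787 bases. *Rgs2* and *Rgs16* were the other members on this chromosome, at chr1:143999338-144004149 and chr1:153740353-153745468, and the remaining members lay on chromosomes 4 (*Rgs3*), 7 (*Rgs10*), 5 (*Rgs12*), 13 (*Rgs14*), and 2 (*Rgs19*). RefSeq promoters on GRCm38.p6 were matched for 9 of the 10 members, and 3 of these had more than 1 start. The 250 bases upstream of the start are shown for the pair of members with the highest levels and for *Rgs7*, the member with the lowest p in the group comparison. They cover chr1:169655251-169655500 for *Rgs5* and, read on the minus strand, chr1:169747643-169747892 for *Rgs4* and chr1:175492546-175492795 for *Rgs7*. The RefSeq start used for *Rgs7* lies inside the gene span given above. Its window is therefore upstream of that start but within the span. Capitals mark an E-box (CANNTG, which reads the same on both strands) or a TATA box (TATAAA, searched for on both strands).
Rgs5: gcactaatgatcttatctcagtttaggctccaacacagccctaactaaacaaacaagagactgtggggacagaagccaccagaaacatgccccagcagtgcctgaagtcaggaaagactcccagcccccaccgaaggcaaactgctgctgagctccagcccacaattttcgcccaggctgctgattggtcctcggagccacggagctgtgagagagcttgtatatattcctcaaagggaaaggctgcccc
Rgs4: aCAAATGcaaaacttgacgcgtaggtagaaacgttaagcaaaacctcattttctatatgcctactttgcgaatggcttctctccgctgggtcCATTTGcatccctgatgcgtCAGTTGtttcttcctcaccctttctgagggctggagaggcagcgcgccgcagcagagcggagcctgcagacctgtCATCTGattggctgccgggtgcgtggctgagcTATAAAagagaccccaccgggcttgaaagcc
Rgs7: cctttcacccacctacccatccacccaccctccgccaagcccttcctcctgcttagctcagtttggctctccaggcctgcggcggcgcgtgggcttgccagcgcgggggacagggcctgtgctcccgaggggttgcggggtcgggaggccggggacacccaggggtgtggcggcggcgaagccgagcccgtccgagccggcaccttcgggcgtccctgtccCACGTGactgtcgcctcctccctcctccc

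The *Rgs4* window held 4 E-boxes and a TATA box 31 to 26 bases before the start. The *Rgs7* window held 1 E-box, 29 to 24 bases before the start, and the *Rgs5* window held no match to either pattern. Only the exact letters TATAAA were searched for. Similar runs, such as tatatat near the end of the *Rgs5* window, were therefore not counted, and a TATA element there is not excluded. E-boxes were found in 66.2% and the TATA box in 12.4% of the 32851 promoter windows of the same length, so both are frequent at this length. The CArG box, the binding motif of serum response factor, was found in 1.47% of all windows and in 0 of the 13 windows of members. GC content was 53.6% in the *Rgs5* and *Rgs4* windows and 72.4% in the *Rgs7* window, beside a median of 52.4% over all windows. A match describes the letters of the window and not binding, and these upstream windows cannot show elements elsewhere.

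*Prdm6*, the targeted gene, had 41.7, 48.4, and 19.8 FPKM in WT0, WT1, and WT2, and 48.6, 27.1, and 15.4 FPKM in KO0, KO1, and KO2. The groups overlapped (log2 fold change -0.32, SE 0.48, limma adjusted p = 0.833), so its gene-level FPKM did not separate the genotypes, and KO below means the libraries labelled KO. All 10 smooth muscle markers were above 0 in every library, and their summed FPKM ran from 2505 to 5800 in WT and from 937 to 2434 in KO. In whole tissue, fewer cells of a type and less RNA per cell cannot be told apart. Summed heart muscle markers ran from 70.4 to 1702 FPKM in WT and from 173 to 1974 in KO and were highest in WT1 and KO2. KO0 held both *Xist* (81.0 FPKM) and the Y-linked *Ddx3y* (26.4 FPKM), and WT2 was the library least like the others (r of 0.67 to 0.73 on the log2 scale).

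Most RGS signal in the DA came from *Rgs5*. It was the highest of the 10 members in 6 of 6 libraries and supplied 62.4% to 82.5% of their summed FPKM, and by mean level it ranked 117th among 12955 genes with a mean of at least 1 FPKM. *Rgs4* was next and supplied 8.51% to 15.5%. By mean FPKM the order was *Rgs5*, *Rgs4*, *Rgs3*, *Rgs10*, *Rgs19*, *Rgs12*, *Rgs7*, *Rgs2*, *Rgs16*, and *Rgs14*. Only the ranges of *Rgs5* and *Rgs4* were apart, and the ranges of the other 8 of 9 neighbouring pairs overlapped. *Rgs12*, for example, was above *Rgs19* in 4 of 6 libraries although its mean was lower. Of the 10 members, 7 were above 0 in all libraries, and *Rgs2*, *Rgs16*, and *Rgs14* were listed at 0 in at least 1. In an FPKM table a 0 may be a failed estimate, since 34 to 61 of 3506 genes with a mean of at least 20 FPKM were also listed at 0 in each library.

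**Figure D1:**
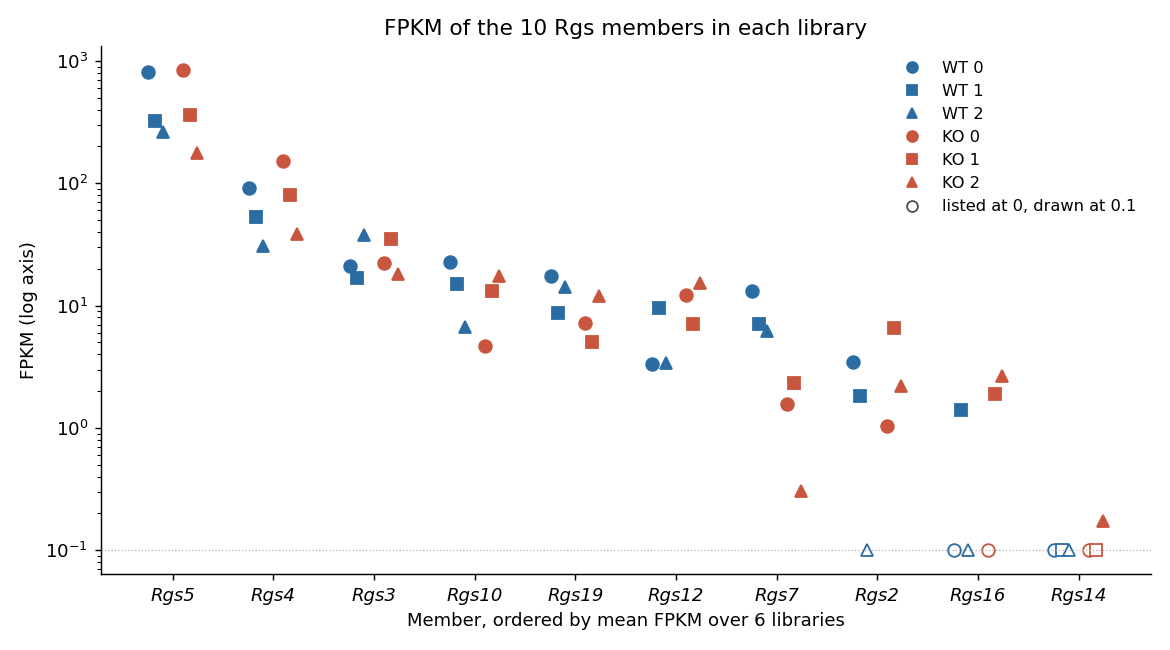
FPKM of the 10 members in each library on a log axis (blue WT, red KO, 1 symbol per library, with values listed at 0 drawn as open symbols at 0.1 FPKM). *Rgs5* lies between 177 and 845 FPKM in every library, and *Rgs7* is the member whose WT points, 6.19 FPKM and above, all lie over its KO points, 2.35 FPKM and below.

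The groups were compared by limma on log2(FPKM + 0.1) over the 12955 genes with a mean of at least 1 FPKM, and 8 of the 10 members entered. None of the 8 passed an adjusted p of 0.05, where 1 of all genes did (0.00772%, the ribosomal RNA gene *Rn45s*). At an unadjusted p under 0.05, 1 of 8 members passed, *Rgs7*, beside 8.28% of all genes tested. *Rgs7* was also the single member of the 8 whose groups did not overlap, beside 16.1% of all genes. The median log2 fold change, KO minus WT, was -0.05 over the 8 members, with 4 lower and 4 higher, beside 0.07 over all genes tested. The sign of the members' median was not stable: it was kept in 11 of 18 alternatives, which ran from -0.30 without KO0 and WT2 to 0.33 without KO2. The median SE of a log2 fold change over all genes tested was 0.41, and that of the 8 members ran from 0.37 (*Rgs3*) to 1.47 (*Rgs2*).

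**Figure D2:**
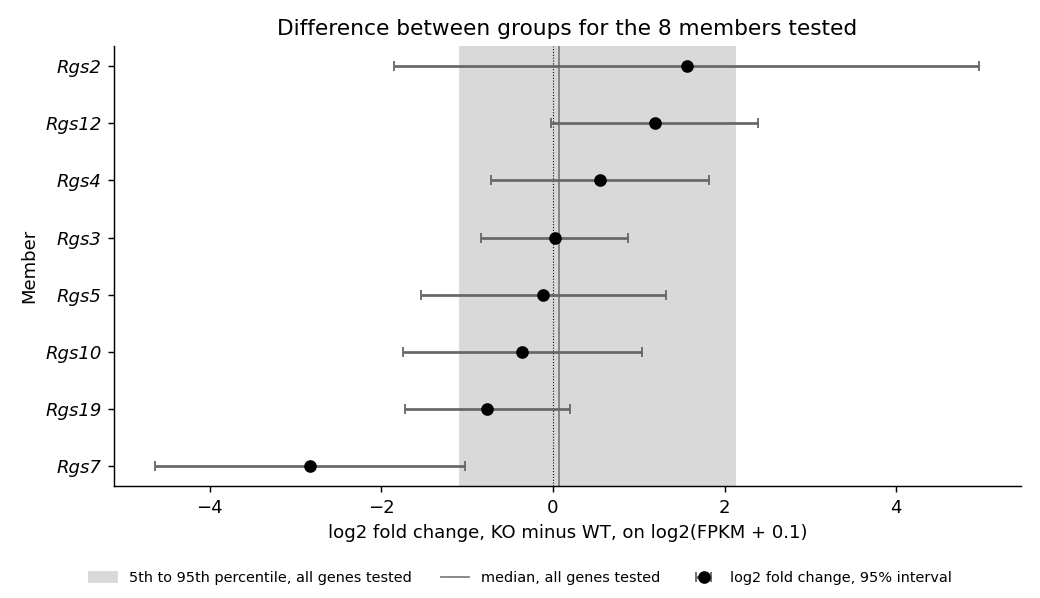
Log2 fold change (KO minus WT, on log2(FPKM + 0.1)) of the 8 members tested, with 95% intervals, over the 5th to 95th percentile of all genes tested (-1.08 to 2.12, shaded) and their median (0.07, grey line). The *Rgs7* interval, -4.63 to -1.03, does not cross 0, and the other 7 do.

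*Rgs5*, the mural cell member of the R4 subfamily, had nearly equal group means and a wide spread within each group. It had 814, 325, and 261 FPKM in WT0, WT1, and WT2, and 845, 364, and 177 FPKM in KO0, KO1, and KO2. WT0 and KO0 stood high and the groups overlapped over most of their range, which spanned 3.11-fold in WT and 4.78-fold in KO. The means were 467 ± 303 FPKM in WT and 462 ± 345 FPKM in KO (SD, n = 3 each). The log2 fold change was -0.12 (SE 0.61, limma adjusted p = 0.963), with an interval of -1.54 to 1.31, so log2 changes of -1 and of 1 both lay inside it. Its sign turned with the library left out (-0.69 to 0.43, the highest without KO2), and it was -1.02 without KO0 and WT2 together.

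*Rgs4*, the neighbour of *Rgs5* and an R4 protein that acts on Gi and Gq, had 92.1, 52.8, and 30.7 FPKM in WT0, WT1, and WT2, and 152, 80.1, and 38.4 FPKM in KO0, KO1, and KO2. The mean was 58.6 ± 31.1 FPKM in WT and 90.1 ± 57.4 FPKM in KO (SD, n = 3 each). WT0 and KO0 were again the highest of their groups, and the groups overlapped. The log2 fold change was 0.55 (SE 0.55, interval -0.73 to 1.82, limma adjusted p = 0.760), and leaving out KO0 brought it to 0.06. The exact permutation test of the 3 against 3 libraries gave p = 0.5, where the smallest possible p is 0.1.

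*Rgs5* and *Rgs4* had nearly the same order of libraries, with WT and KO libraries intermixed. In decreasing order, KO0, WT0, KO1, and WT1 held the first places for both genes, and only WT2 and KO2 changed places. Over the 6 libraries, Pearson's r on the log2 scale was 0.89 and Spearman's rho 0.94, each with an exact permutation p of 0.0167. After adjustment over the 21 pairs of the 7 members above 0 in all libraries, both p were 0.35. WT0 and KO0 lay far above the other 4 libraries for *Rgs5*, and without the 2 libraries farthest from its median r was 0.71 over the other 4. The only other pair with an exact permutation p under 0.05 was *Rgs12* with *Rgs7*, whose groups are apart for *Rgs7*, so no pooled r is given.

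**Figure D3:**
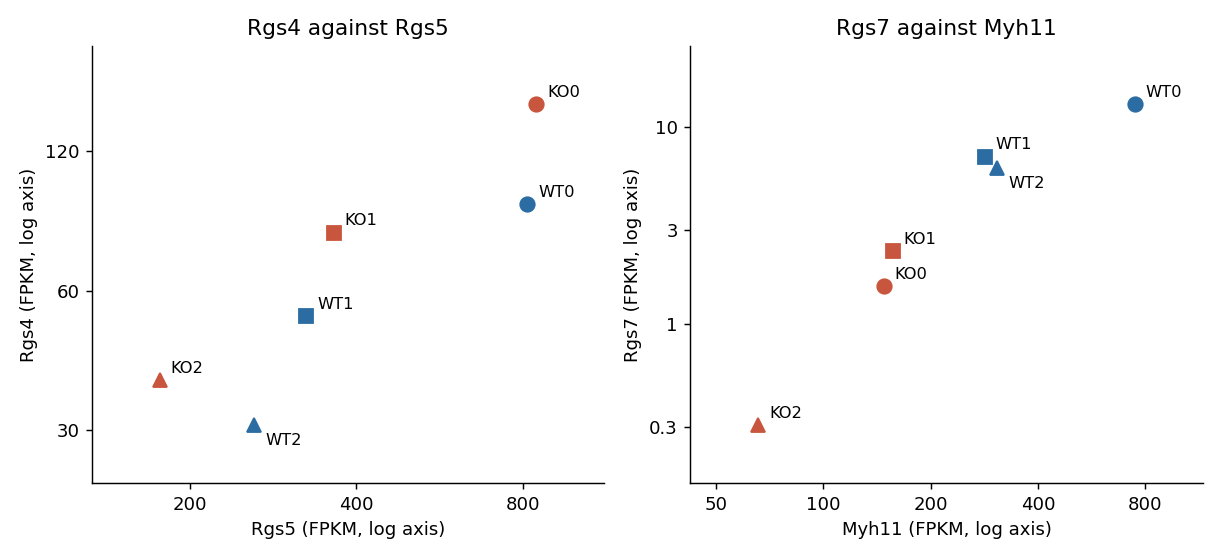
Left, *Rgs4* against *Rgs5* in FPKM, and right, *Rgs7* against *Myh11* in FPKM, both axes logarithmic, 1 point per library coloured by group. WT and KO libraries are mixed along the left diagonal, from 177 and 38.4 FPKM in KO2 to 845 and 152 FPKM in KO0, and are apart on the right, where all WT libraries lie above all KO libraries on both axes.

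Among 6199 genes with a mean of at least 10 FPKM and no library at 0, the 5 most like *Rgs5* over the 6 libraries were *Inhba*, which encodes a subunit of activin (Pearson's r 0.99), *Prr33* (0.98), *Nt5c3* (0.98), *Hcfc2* (0.97), and *Fermt2*, which encodes the integrin activator kindlin-2 (0.97). *Inhba* had 131, 68.2, and 60.4 FPKM in WT and 136, 68.1, and 49.8 FPKM in KO, in the order of the library numbers. The 5 most like *Rgs4* were *Mpped2* (0.98), *Spats2l* (0.98), *Rps4x* (0.98), *Atp10a* (0.98), and *Fbxo30* (0.97). These coefficients describe 6 points that share libraries and depth, and they were the highest of many genes searched.

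*Rgs5* was set against 4 other genes of mural cells in the same library, as a log2 ratio of FPKM. Against *Pdgfrb*, the receptor that recruits pericytes, the ratio was 4.43, 3.16, and 2.87 in WT0, WT1, and WT2 and 4.45, 3.27, and 2.68 in KO0, KO1, and KO2. The group difference was -0.02 (exact permutation p = 1). Against *Notch3*, the Notch receptor of mural cells, the difference was -0.28 (exact permutation p = 0.6, 0.8 after adjustment over the 4 ratios).

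In the ratios to 2 contractile genes, both with a lower mean in KO, the groups did not overlap. Against *Acta2*, smooth muscle actin, it was -1.47, -1.79, and -1.71 in WT0, WT1, and WT2 and -0.46, -1.15, and -1.16 in KO0, KO1, and KO2. Against *Myh11*, smooth muscle myosin heavy chain, it was 0.12, 0.20, and -0.24 in WT and 2.52, 1.22, and 1.43 in KO. Every KO library lay above every WT library in both, by a mean difference of 0.73 for *Acta2* and 1.69 for *Myh11*. Both had an exact permutation p of 0.1, the smallest that 3 against 3 can give, and 0.2 after adjustment, so neither passed. The *Myh11* difference was 1.30 without KO0 and 1.95 without KO1, and the *Acta2* difference was 0.50 without KO0. Without KO0 and WT2 together they were 1.17 and 0.47. *Acta2* itself had 2262, 1121, and 855 FPKM in WT and 1161, 809, and 396 in KO, and *Myh11* 749, 284, and 308 FPKM in WT and 148, 157, and 65.6 in KO. Neither gene passed the adjusted threshold (limma adjusted p = 0.657 and 0.463). The groups were already apart for *Myh11* alone and overlapped for *Acta2* alone. A gene with similar levels in both groups can separate them in a ratio to *Myh11*, so nothing particular to *Rgs5* is read from it. How many other genes would separate in these ratios was not counted. Of the 8 mural and pericyte markers tested, 6 had a lower and 2 a higher mean in KO, with a median log2 fold change of -0.18. All KO libraries lay below all WT libraries for 2 of them (7.84% of all genes), *Kcnj8* and *Abcc9*, subunits of the vascular ATP-sensitive potassium channel (log2 fold change -1.09 and -0.60, limma adjusted p = 0.317 and 0.574). The most abundant, *Mcam*, had overlapping groups (-0.17). Whether *Rgs5* differs from these markers was not tested.

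**Figure D4:**
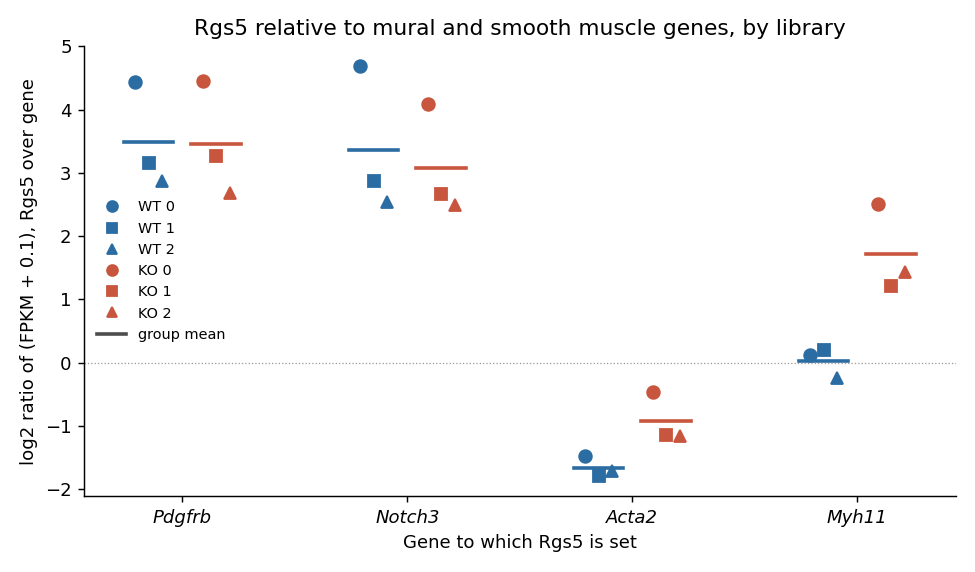
Log2 ratio of *Rgs5* to *Pdgfrb*, *Notch3*, *Acta2*, and *Myh11* in each library, with group means. The groups are mixed for *Pdgfrb* and *Notch3* and apart for *Acta2* (highest WT -1.47, lowest KO -1.16) and *Myh11* (highest WT 0.20, lowest KO 1.22).

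The other R4 members had lower levels, with overlapping groups. *Rgs3*, whose long forms carry further domains beside the RGS domain, had 21.0, 16.7, and 38.0 FPKM in WT0, WT1, and WT2 and 22.2, 34.9, and 18.01 FPKM in KO0, KO1, and KO2. Its means of 25.3 ± 11.2 and 25.0 ± 8.79 FPKM (SD, n = 3 each) gave a log2 fold change of 0.02 (SE 0.37, interval -0.84 to 0.88, limma adjusted p = 0.988). *Rgs2*, the Gq-selective regulator known to lower vascular tone, had 3.47 and 1.82 FPKM in WT0 and WT1, was listed at 0 in WT2, and had 1.04, 6.58, and 2.20 FPKM in KO0, KO1, and KO2. Its groups overlapped, and the log2 fold change of 1.56 (SE 1.47, limma adjusted p = 0.747) rested on the 0 in WT2, since it was -0.0094 without that library. *Rgs16* was listed at 0 in WT0, WT2, and KO0 and had 1.41 FPKM in WT1, 1.88 in KO1, and 2.64 in KO2. Its mean was under 1 FPKM, so it was not tested in the fit across genes, and the exact permutation test gave p = 0.4.

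*Rgs7* was the member with the lowest values in KO relative to WT. It had 13.1, 7.05, and 6.19 FPKM in WT0, WT1, and WT2, and 1.56, 2.35, and 0.306 FPKM in KO0, KO1, and KO2. All 3 KO libraries lay below all 3 WT libraries, and KO2 was the lowest of all. The means were 8.77 ± 3.75 FPKM in WT and 1.40 ± 1.03 FPKM in KO (SD, n = 3 each), 6.25-fold lower in KO. The log2 fold change was -2.83 (SE 0.78, interval -4.63 to -1.03, limma unadjusted p 0.00706, limma adjusted p = 0.501), so it did not pass the threshold over all genes. The exact permutation test gave p = 0.1, the smallest possible. In the same fit, 0.633% of genes had a log2 fold change as low, and 1.4% had a p as low. Over all alternatives the log2 fold change stayed between -3.52 and -2.06, the latter without KO2, and the adjusted p between 0.385 and 0.871.

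*Rgs7* is best known from neurons, and neuron markers had higher sums in KO than in WT. Their summed FPKM ran from 9.22 to 27.1 in WT and from 40.6 to 69.4 in KO. Listed at 0 were 5 of the 10 in WT0 and in WT2, 1 in WT1, 4 in KO0, 2 in KO1, and 0 in KO2. *Stmn2* of the same list had 12.3, 3.69, and 19.1 FPKM in WT and 32.5, 27.7, and 29.7 FPKM in KO. It thus made up most of the sum of 40.6 FPKM in KO0. The median neuron marker had 0.568 FPKM in KO0 and 0.573 FPKM in WT1, so the medians did not separate the groups as the sums did. Summed Schwann cell markers ran from 21.5 to 54.6 FPKM in WT and from 50.4 to 192 in KO. Summed smooth muscle markers moved in the same direction as *Rgs7*, as did *Myh11*. Their groups were only narrowly apart (lowest WT 2505 FPKM, highest KO 2434 FPKM). All 10 of these markers had a lower mean in KO, and for 5 of them all KO libraries lay below all WT libraries (7.84% of all genes). The part of smooth muscle or neuron content in the *Rgs7* values was not tested. Its partner gene *Gnb5*, which encodes Gβ5 and is named here for that known binding, had 5.57, 5.78, and 4.53 FPKM in WT and 2.25, 6.65, and 4.71 FPKM in KO, with overlapping groups (log2 fold change -0.34, limma adjusted p = 0.832).

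Other genes of the R7 group were measured at low levels. *Rgs9* was listed at 0 in WT0 and WT2, had 0.179 FPKM in WT1, and had 0.990, 2.99, and 2.79 FPKM in KO0, KO1, and KO2. All KO libraries lay above all WT libraries at these low levels (8.21% of all genes), with an exact permutation p of 0.1 (limma adjusted p = 0.584). *Rgs9* entered the test through its KO values, so nothing is read from this order. *Rgs6* had 1.54, 3.02, and 1.66 FPKM in WT and 0.732, 2.73, and 4.31 FPKM in KO (log2 fold change 0.07, limma adjusted p = 0.983). *Rgs7bp*, which encodes a protein that anchors R7 complexes at the membrane, had 3.78, 3.70, and 8.29 FPKM in WT and 17.7, 7.57, and 4.16 FPKM in KO (log2 fold change 0.74, limma adjusted p = 0.724). Whether the fold changes of *Rgs7* and *Rgs9* differ was not tested.

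Of the R12 members, *Rgs12*, a large protein with a further motif that binds inactive alpha subunits of the Gi class, had 3.31, 9.52, and 3.40 FPKM in WT0, WT1, and WT2 and 12.2, 7.03, and 15.4 FPKM in KO0, KO1, and KO2. WT1 lay above KO1, so the groups overlapped, and the other WT libraries lay below all KO libraries. The means were 5.41 ± 3.56 FPKM in WT and 11.5 ± 4.22 FPKM in KO (SD, n = 3 each), with a log2 fold change of 1.19 (SE 0.52, interval -0.02 to 2.39, limma adjusted p = 0.601) and an exact permutation p of 0.2. *Rgs10*, a short protein that is abundant in microglia and other leukocytes, had 22.5, 15.1, and 6.73 FPKM in WT0, WT1, and WT2 and 4.66, 13.2, and 17.49 FPKM in KO0, KO1, and KO2. It varied over a similar range in both groups (log2 fold change -0.36, SE 0.60, limma adjusted p = 0.853), while summed macrophage and leukocyte markers ran from 32.6 to 240 FPKM in WT and from 53.2 to 263 in KO. *Rgs14*, which also binds inactive alpha subunits, was listed at 0 in 5 libraries and had 0.174 FPKM in KO2, so it was not tested.

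*Rgs19*, the RZ member, had 17.46, 8.77, and 14.2 FPKM in WT0, WT1, and WT2 and 7.22, 5.03, and 11.9 FPKM in KO0, KO1, and KO2. Only WT1 and KO2 crossed. The means were 13.5 ± 4.38 FPKM in WT and 8.05 ± 3.50 FPKM in KO (SD, n = 3 each), and the log2 fold change of -0.77 (SE 0.41, interval -1.73 to 0.20, limma adjusted p = 0.649) had an exact permutation p of 0.2. *Rgs7*, *Rgs19*, and *Rgs12* were the 3 of 8 members that kept their sign under all 18 alternatives. By subfamily, 3 R4 members were higher and 1 lower in KO, the tested R12 members were 1 higher and 1 lower, and the single RZ and R7 members were lower, with none of these passing the adjusted threshold.

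Beyond the 10 members, 14 further RGS genes and R7 binding proteins were in the table. Of these, 2 (*Rgs1* and *Rgs21*) were listed at 0 in every library, 10, these included, were listed at 0 in at least 1 library, and 5 were tested. None passed the adjusted threshold. In 3 of the 5 all KO libraries lay above all WT libraries (8.21% of all genes), 2 of them with an unadjusted p under 0.05 (3.31% of all genes), but the filter on mean FPKM fixed this in part. The WT values of these 3 were mostly under 1 FPKM, so they entered the test through their KO values, and nothing is read from the counts. Besides *Rgs9*, they were *Rgs20*, an RZ gene best known from brain, and *Rgs17*, another RZ gene. *Rgs20* had 0.431, 0.609, and 0.0543 FPKM in WT and 8.55, 1.62, and 1.54 FPKM in KO (log2 fold change 2.90, SE 1.18, limma adjusted p = 0.591), and *Rgs17* 0.570, 0.6999, and 1.17 FPKM in WT and 1.45, 1.28, and 1.53 FPKM in KO. The neuron marker sums given above were also higher in every KO library than in every WT library. The Schwann cell marker sums overlapped between groups, with KO0 (50.4 FPKM) below WT2 (54.6 FPKM). The part of either cell type in the RGS values was not tested.

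The alpha subunits on which RGS proteins act were represented by 11 tested genes, of which none passed the adjusted threshold and 1 had an unadjusted p under 0.05 in the lower direction (4.97% of all genes). This was *Gna14*, a Gq-class alpha subunit, with 29.6, 15.002, and 8.37 FPKM in WT0, WT1, and WT2 and 1.51, 1.23, and 0.593 FPKM in KO0, KO1, and KO2. All WT libraries lay well above all KO libraries (log2 fold change -3.77, SE 0.61, limma adjusted p = 0.298; 7.84% of all genes were apart in this direction). The abundant subunits *Gnas* (Gs) and *Gnai2* (Gi) had log2 fold changes of -0.07 and -0.24, and the more usual Gq-class genes *Gnaq* and *Gna11*, added for comparison after the *Gna14* values were seen, had -0.24 and -0.28. Of 10 tested beta and gamma subunits, none had an unadjusted p under 0.05, with *Gnb1* at -0.18 and *Gnb2* at -0.24.

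Among receptors that constrict vessels, 20 were tested, and at an unadjusted p under 0.05, 1 was lower (4.97% of all genes) and 3 were higher (3.31%), with a list median of 0.39. The thromboxane receptor *Tbxa2r* had 9.39, 4.71, and 3.55 FPKM in WT and 0.372, 0.565, and 2.66 FPKM in KO (log2 fold change -2.53, SE 0.85, limma adjusted p = 0.545). The higher ones were *Ptger3*, a prostaglandin E receptor (log2 fold change 4.34, with WT0 and WT2 listed at 0), *Agtr1b*, an angiotensin receptor (2.94), and *Ednrb*, an endothelin receptor (1.58), with limma adjusted p of 0.564, 0.591, and 0.567. *Agtr1b* had 0.822, 0.553, and 0 FPKM in WT and 5.17, 1.96, and 2.39 FPKM in KO. It entered the test through its KO values, so nothing is read from the count of higher receptors. *F2r*, the thrombin receptor and the most abundant of the list, was at 0.16.

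Among receptors that relax vessels, 8 were tested, of which 2 had a lower and 6 a higher mean in KO. At an unadjusted p under 0.05, 2 were lower (4.97% of all genes) and none higher. *Ptger4*, the prostaglandin E receptor that keeps the fetal DA open, had 32.4, 22.8, and 21.8 FPKM in WT0, WT1, and WT2 and 5.10, 5.51, and 7.61 FPKM in KO0, KO1, and KO2. Every WT library lay above every KO library (log2 fold change -2.06, SE 0.29, limma adjusted p = 0.172). *Vipr1*, a receptor of vasoactive intestinal peptide, had a log2 fold change of -1.62 (limma adjusted p = 0.5999). The most abundant of the list, *Calcrl*, a receptor of calcitonin gene-related peptide and adrenomedullin, had 24.6, 44.7, and 36.2 FPKM in WT and 39.3, 45.1, and 66.8 FPKM in KO, with overlapping groups (0.52, limma adjusted p = 0.650). The list's median was 0.67.

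Downstream, none of 26 tested effectors, such as *Rhoa* (-0.28) and *Rock2* (0.07), and none of 11 tested receptor kinases, arrestins, and other regulators had an unadjusted p under 0.05. In the latter list 3 genes had all KO libraries below all WT libraries (7.84% of all genes), among them the receptor kinase *Grk6* (-0.30) and *Gpsm2* (-0.44), which binds inactive alpha subunits. A list of 8 N-degron enzymes was read because RGS4, RGS5, and RGS16 are degraded by such a route, though not every enzyme listed acts on them. Of the 8, 1 had an unadjusted p under 0.05, in the lower direction (4.97% of all genes). This was *Metap2*, a methionine aminopeptidase that exposes the cysteine, with 22.9, 28.2, and 34.3 FPKM in WT and 15.1, 20.4, and 20.01 FPKM in KO (log2 fold change -0.61, SE 0.24, limma adjusted p = 0.588). The highest of the list were *Ubr4*, a ubiquitin ligase (log2 fold change 0.03), and *Ntan1*, an amidase for N-terminal asparagine and not for cysteine. *Ntan1* had 20.1, 19.5, and 17.2 FPKM in WT and 36.9, 23.5, and 24.3 FPKM in KO, with every KO library above every WT library (0.54, limma adjusted p = 0.601; 8.21% of all genes). *Ado*, the oxygen-dependent cysteine dioxygenase of the route for RGS4, RGS5, and RGS16, named for this role and not by its values, had 10.96, 9.32, and 4.98 FPKM in WT and 8.75, 6.67, and 6.72 FPKM in KO. RNA levels do not show how much of these proteins was present.

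**Figure D5:**
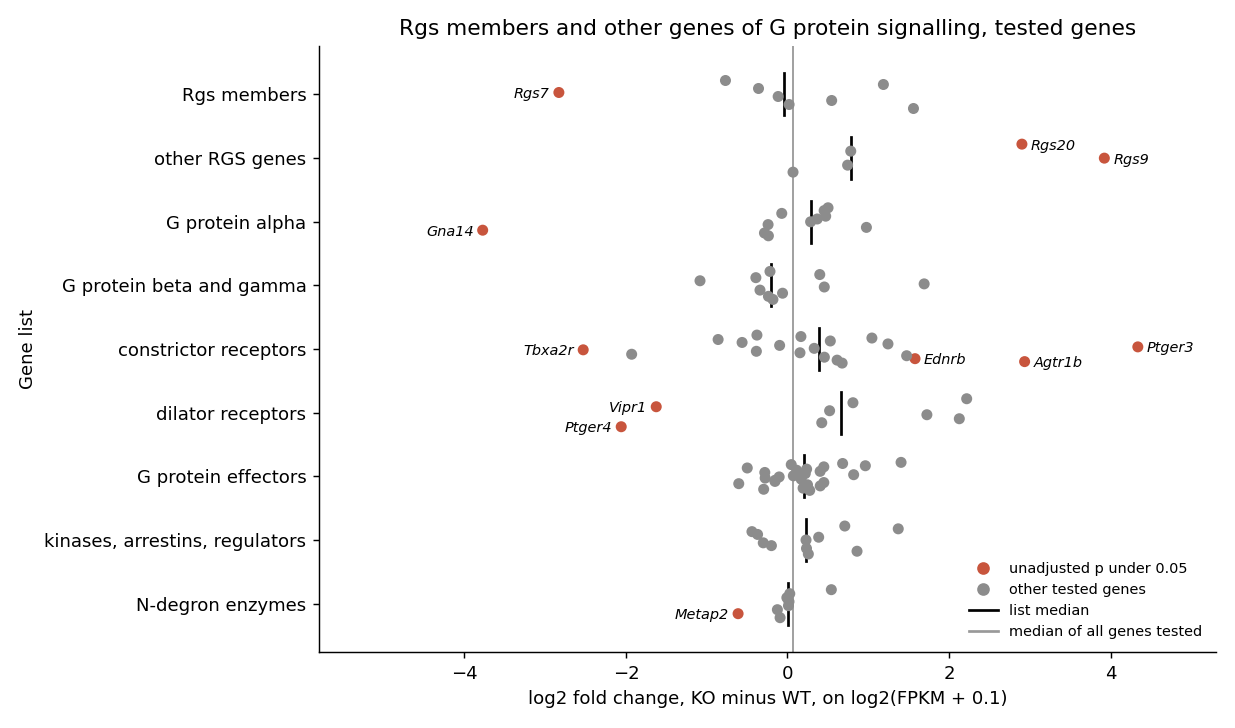
Log2 fold change (KO minus WT, on log2(FPKM + 0.1)) of every tested gene in the RGS, G protein, receptor, effector, kinase, and N-degron lists, 1 point per gene, with list medians as black bars and the median of all genes tested (0.07) as a grey line. Red points had an unadjusted p under 0.05, among them *Rgs7* (-2.83), *Gna14* (-3.77), *Tbxa2r* (-2.53), and *Ptger4* (-2.06), and no point passed the adjusted threshold.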

How the data were processed

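RNA-Seq of 6 DA libraries (3 WT, 3 KO) was analysed. The authors aligned trimmed reads to mm10 with TopHat2, and the deposited FPKM values, 1 per gene and library, came from Cufflinks. Versions, annotation, and scaling are not given in the sources used here. Upper quartiles were 10.4 to 10.8 FPKM in all libraries. FPKM hold no counts, so the total depth is unknown and no counting interval was computed. From steps between low values, depth relative to WT1 was 0.93 to 1.20. This rough estimate drew on 89 to 258 genes a library and was set by the 8 (WT2) to 26 (KO2) of them at the most frequent ratio.

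From the deposited FPKM, log2(FPKM + 0.1) of genes with a mean of at least 1 FPKM was tested by limma 3.58.1 in R 4.3.3. The two-sided p of its moderated fit, with a trend of variance on the mean, were adjusted over 12955 genes after Benjamini and Hochberg, and 0.05 was the threshold. Single values were compared by two-sided exact permutation over the 20 splits of 3 against 3 libraries. Cuffdiff, named in the study's methods, needs the reads and was not repeated. Positions came from GENCODE on GRCm38 and promoters from RefSeq.

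The members and lists were chosen with earlier results of these data known. Named are the members, *Prdm6*, the genes of each list with an unadjusted p under 0.05 (at most 4) and its 2 highest by mean FPKM, the 5 genes most like *Rgs5* and *Rgs4*, markers, and partners said to be named otherwise. No list was tested as a set. All 6 columns of the table matched a library, and no values of the authors' own comparisons were used. Alternatives were other pseudocounts, filters, scalings, and variance models, a replicate block, and the omission of libraries.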

Additional observations from a re-analysis of the deposited data

How the results depend on the processing

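No member was called under any of the 18 alternatives (lowest adjusted p 0.385), but signs of small differences turned. The *Rgs5* log2 fold change was 0.042 after quantile normalization, 0.27 without WT1 and KO2 (highest in heart muscle markers), -1.02 without KO0 and WT2, and -0.69 to 0.43 with each library left out in turn. *Rgs4* became -0.33 without KO0 and WT2 together. *Rgs3* was -0.023 without WT1 and KO2. With each library left out in turn, *Rgs3* ran from -0.25 to 0.36, *Rgs10* from -0.84 to 0.20, and *Rgs2* from -0.0094 to 2.57. The ratio of *Rgs5* to *Pdgfrb* differed by 0.048 after quantile normalization and by 0.20 without WT1 and KO2, and ran from -0.51 to 0.45 with each library left out, and that to *Notch3* from -0.78 to 0.38. Without KO0 and WT2 these ratios differed by -0.82 and -1.20. The cause of these turns was not tested. The omissions of WT1 with KO2 and of KO0 with WT2 were chosen after the data were seen, and where an omission left fewer libraries the adjusted p also rested on fewer degrees of freedom.

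The number of genes called was 1, or 2 without the mean-variance trend, without moderation, without WT1 and KO2, and without KO0 and WT2, and 1 to 2 with each library left out. The members' median (-0.05) ran from -0.30 to 0.33 over the 18 alternatives and kept its sign in 11. Medians of lists moved for alpha subunits (0.29 to -0.0016 with a mean of at least 0.1 FPKM, 0.11 with at least 5 FPKM, 0 with no filter, 0.059 without KO0 and WT2, and -0.029 to 0.33 with each library left out), dilator receptors (-0.77 with at least 5 FPKM, 0.47 with no filter, 0.86 without WT1 and KO2, 0.46 without KO0 and WT2), constrictor receptors (0.15 without KO0 and WT2), and, with each library left out, other RGS genes (0.59 to 1.23) and beta and gamma subunits (-0.22 to -0.011). Filters change which genes enter a list.

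Same-numbered libraries did not deviate together (r of deviations 0.12, -0.08, and -0.01), and the labels do not say that a number marks a pair. With a replicate block, 1 gene and 0 members were called, and the lowest adjusted p of a member was 0.385, for *Rgs7*. Not every library correlated best with its own number. Ratios were not recomputed for filters, variance models, or the block, which do not enter them, and *Rgs2* had no value with a mean of at least 5 FPKM. Unknown depth limits what can be said of members under 1 FPKM.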

Other observations

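Endothelial marker genes belong to no comparison of RGS genes, and their values are given here. *Cldn5*, the tight junction gene of endothelium, had 9.91, 11.6, and 14.6 FPKM in WT0, WT1, and WT2 and 27.9, 48.2, and 39.0 FPKM in KO0, KO1, and KO2, so every KO library lay above every WT library (log2 fold change 1.64, SE 0.27, limma adjusted p = 0.298). Of the 10 endothelial markers tested, 8 had a higher and 2 a lower mean in KO. All KO libraries lay above all WT libraries for 2 of them (8.21% of all genes), and *Cldn5* had the largest log2 fold change of the list. *Pecam1*, a general endothelial gene, had overlapping groups (log2 fold change 0.48, limma adjusted p = 0.657), as did *Vwf* (0.39, limma adjusted p = 0.699). No gene of the list passed the threshold over all genes tested.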
